A study of Rattus norvegicus with 8 samples.

Results

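The genes described here encode the signals that bring bone-resorbing cells to an erupting tooth: Tnfsf11 (RANKL), Tnfrsf11b (osteoprotegerin, OPG), Tnfrsf11a (RANK), Csf1 (macrophage colony-stimulating factor), Nfatc1, Oscar, Pthlh (parathyroid hormone-related protein, PTHrP) and Pth1r (its receptor). They are 8 genes listed by name, and all 8 have an entry among the 17337 genes of the deposited count table. RNA was sequenced from periodontal ligament (PDL), the fibrous tissue between tooth root and jaw bone, captured by laser micro-dissection from the cervical (upper root) region of untreated rats (Rattus norvegicus) with normal growth. The groups were postnatal day 28 (P28, 4 animals) and postnatal day 18 (P18, 4 animals), on either side of the time at which the teeth meet their opponents. The labels give no strain and no sex, and each library was taken as 1 animal.

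RANKL is a membrane-bound or shed ligand of stromal cells, osteoblasts and osteocytes, and it drives precursors of the macrophage lineage to become osteoclasts through the receptor RANK. OPG is a secreted decoy that binds RANKL and keeps it from RANK, while Csf1 keeps the precursors alive and dividing. PTHrP, made in the enamel organ and in mesenchyme, acts through Pth1r on follicle and ligament cells, and in humans loss of one functional copy of the receptor gene is a known cause of primary failure of tooth eruption.

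None of these genes passed the test between the ages. The 6 that could be tested had log2 fold changes above 0, from 0.16 for Csf1 to 2.57 for Tnfrsf11a, and each of them had overlapping P28 and P18 libraries (0 of 6 without overlap, against 10.4% of all genes, 4.91% with P28 higher and 5.54% with P28 lower). Tnfsf11 had no count in any library, and Oscar had counts in too few libraries to be tested. Over all 10472 genes tested, 98 (0.936%) had an adjusted p under 0.05 (quasi-likelihood test of edgeR, Benjamini-Hochberg adjustment), 54 higher (0.516%) and 44 lower (0.42%), against 0 of the 6. That number of calls was 9 without P18 replicate 2 and 215 without P28 replicate 4. An unadjusted p under 0.05 was found for 2 of the 6 genes, Nfatc1 and Pth1r, both higher, and for 14.5% of all genes tested, 7.45% higher and 7.1% lower. A log2 fold change above 0 was found for 50.3% of all genes tested.

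The libraries held 5252693 to 17803006 counts at P28 and 10863769 to 26645656 at P18. P28 replicate 4, the shallowest, stood apart. Across genes its log2 CPM correlated at 0.750 to 0.766 with those of its group, which correlated at 0.813 to 0.827 with each other (genes are not independent replicates). The P18 libraries correlated at 0.78 to 0.835 among themselves. Ligament fibroblast markers, 10 in the table, summed to 139236 to 199458 CPM at P28 and to 97200 to 139181 CPM at P18; Col1a1, which osteoblasts also express, and Col3a1 make up most of each sum, and Tnmd, tenomodulin, averaged 104 ± 36.9 CPM at P28 and 560.0 ± 119 CPM at P18 (SD, n = 4 each). CPM are counts scaled to a common library size, and they are compared here between libraries and not between genes, since transcript lengths were not used. In captured tissue, fewer cells of a type and less RNA per cell cannot be told apart.

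**Figure D1:**
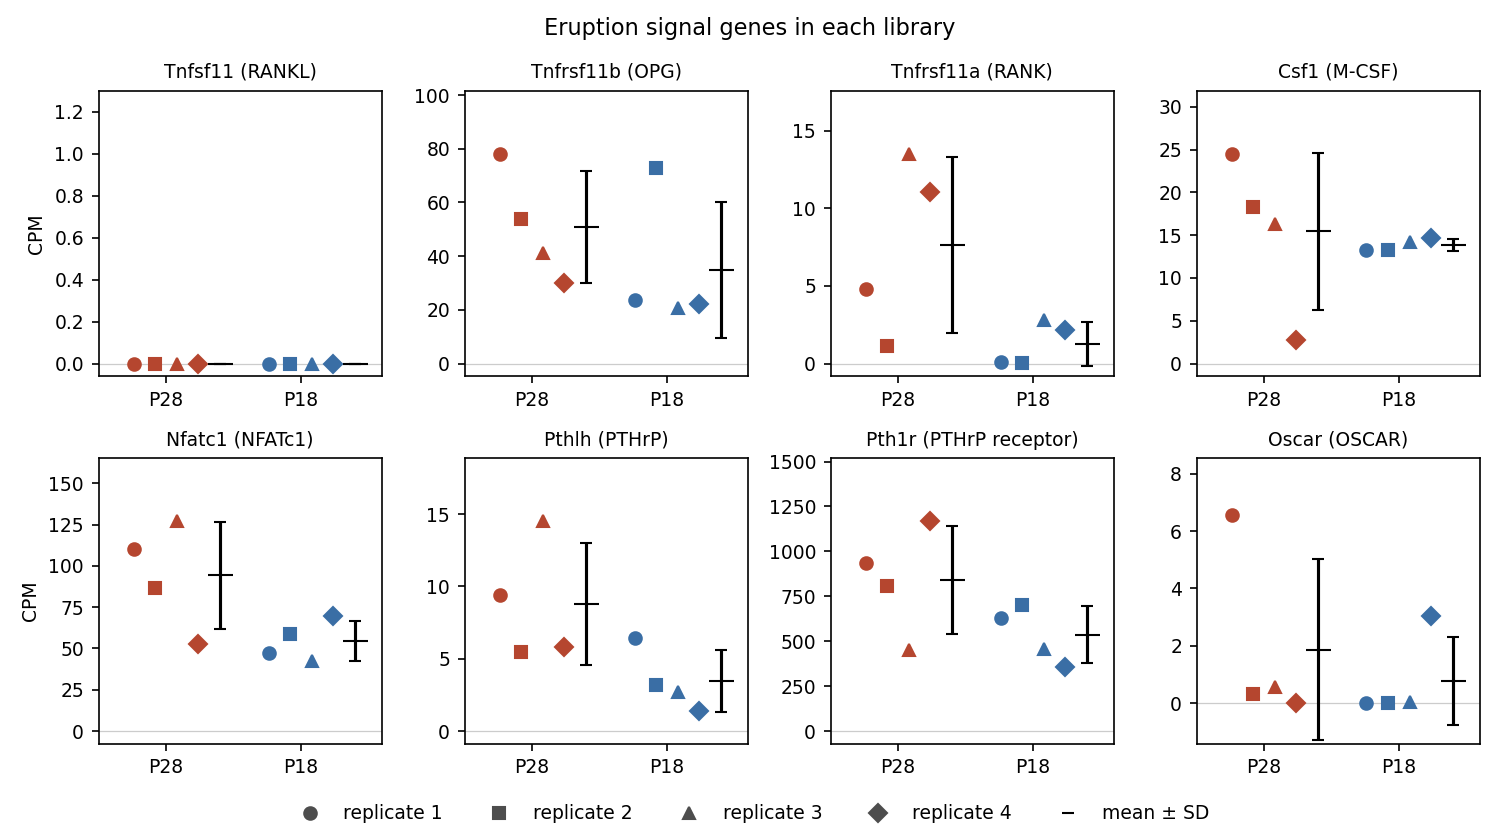
Level of each of the 8 genes in every library, in CPM on linear axes that differ between panels. P28 libraries are red and P18 libraries blue, marker shapes give the replicate number (which pairs no animals), and the black bars are the mean ± SD of 4 libraries. Tnfsf11 is at 0 throughout, and in every other panel the ranges of the ages overlap.

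Tnfsf11, the ligand that starts osteoclast formation, was not detected. It had 0 counts in all 4 P28 libraries and 0 counts in all 4 P18 libraries. At 0 counts a true level of up to 3 counts is allowed (1-sided 95% limit), equal to 0.176, 0.313, 0.245 and 0.624 CPM across P28 replicates 1 to 4 and 0.271, 0.108, 0.128 and 0.153 CPM across P18 replicates 1 to 4. Taken over the group, the same limit is 0.0687 CPM at P28 and 0.0366 CPM at P18. Such limits cover counting error only, because PCR duplicates cannot be told from separate molecules.

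The Tnfsf11 to Tnfrsf11b ratio, the usual summary of how strongly a tissue favours resorption, therefore has no value in any library: 0 of the 8 had both genes counted. With Tnfsf11 at its limit of 3 counts per library and the Tnfrsf11b count taken as exact, the upper limit of the count ratio would be 0.00225, 0.00581, 0.00594 and 0.0208 in P28 replicates 1 to 4, and 0.0115, 0.00149, 0.00613 and 0.00683 in P18 replicates 1 to 4. These limits follow the Tnfrsf11b count of each library, and they allow no comparison of the ratio between ages.

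Other entries at 0 stand beside this result. In all 8 libraries 4197 genes (24.2% of the table) had no count, among them Il6, Tnf, Lif and Il17a, cytokines known to raise RANKL. These were the only 4 at 0 throughout among the 29 listed inducers of RANKL and eruption cytokines, of which 20 passed the filter on low counts. Aspn was at 0 in every P28 library and at 1, 2, 1 and 0 counts in P18 replicates 1 to 4, although it encodes asporin, a proteoglycan also known as periodontal ligament-associated protein 1; it was picked out after its values were seen. Whether reads of Tnfsf11 were lost in alignment or counting was not tested. Markers of osteocytes, which carry RANKL in bone, were uneven. Dmp1, a matrix protein of osteocytes and cementocytes, lay at 77.8, 206, 67.5 and 104 CPM across P28 replicates 1 to 4 and at 46.8, 21.8, 17.3 and 88.8 CPM across P18 replicates 1 to 4. Sost, the osteocyte inhibitor of Wnt signalling, had 1, 0, 1 and 0 counts in P28 replicates 1 to 4 and 0, 0, 1 and 19 counts in P18 replicates 1 to 4.

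Tnfrsf11b, the decoy receptor gene, was counted in every library. It lay at 78.2, 53.9, 41.2 and 30.0 CPM across P28 replicates 1 to 4, and at 23.6, 72.7, 20.9 and 22.3 CPM across P18 replicates 1 to 4. All 4 P28 libraries were above 3 of the P18 libraries, and P18 replicate 2 lay above 3 of the P28 libraries. The mean was 50.8 ± 20.7 CPM at P28 and 34.9 ± 25.2 CPM at P18 (SD, n = 4 each). The log2 fold change was 0.54 ± 0.47 (SE), with a 95% interval of -0.49 to 1.57 (adjusted p = 0.654). Its size rested on single libraries. Without P18 replicate 2 the log2 fold change was 1.18 ± 0.43 (adjusted p = 0.302), and without P28 replicate 1 it was 0.26. The high P18 value came from 2017 counts.

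Tnfrsf11a, the receptor of osteoclast precursors, had the largest fitted change and the largest SE among the tested signal genes. It lay at 4.82, 1.15, 13.5 and 11.0 CPM across P28 replicates 1 to 4, from 82, 11, 166 and 53 counts. At P18 it lay at 0.0904, 0.0360, 2.82 and 2.14 CPM in replicates 1 to 4, from 1, 1, 66 and 42 counts. P28 replicates 1, 3 and 4 were above every P18 library, P28 replicate 2 lay inside the P18 range, and P18 replicates 1 and 2 had a single count each. The mean was 7.63 ± 5.67 CPM at P28 and 1.27 ± 1.42 CPM at P18 (SD, n = 4 each). P28 over P18, the log2 fold change was 2.57 ± 1.43, with a 95% interval of -0.54 to 5.68 (adjusted p = 0.446), and 2.14 to 3.31 leaving out 1 library. The spread within P18, 78.2-fold between the lowest and the highest library, was larger than the fitted difference between the ages, 5.95-fold.

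Within a library, Tnfrsf11b had 16.2, 46.9, 3.04 and 2.72 counts per count of Tnfrsf11a in P28 replicates 1 to 4, and 261, 2017, 7.41 and 10.5 in P18 replicates 1 to 4. The ages overlapped here too, and the P18 ratios of 261 and 2017 rest on 1 count of Tnfrsf11a each. This ratio was chosen after the values were seen and was not tested; it is not corrected for transcript length.

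Nfatc1, the transcription factor that RANK signalling switches on and that is required for osteoclast formation, lay at 110, 86.8, 127 and 52.4 CPM across P28 replicates 1 to 4. At P18 it lay at 47.2, 58.5, 42.4 and 69.8 CPM in replicates 1 to 4. P28 replicates 1 to 3 were above every P18 library, and P28 replicate 4 fell below P18 replicates 2 and 4. The mean was 94.2 ± 32.4 CPM at P28 and 54.5 ± 12.3 CPM at P18 (SD, n = 4 each). The fitted log2 fold change was 0.79 ± 0.31, with a 95% interval of 0.13 to 1.46 taken alone; once adjusted over all genes the test was not passed (adjusted p = 0.250). Without P28 replicate 4 it was 0.99 ± 0.26 (adjusted p = 0.0786), and without P28 replicate 3 it was 0.61 (adjusted p = 0.501).

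Oscar, which encodes a collagen-binding receptor that co-stimulates osteoclast precursors through the adaptor FcR gamma, was carried by 1 library of each age. It had 112, 3, 7 and 0 counts in P28 replicates 1 to 4 and 0, 0, 1 and 60 counts in P18 replicates 1 to 4. That is 6.58 CPM in P28 replicate 1 (95% counting interval 5.42 to 7.91) and 3.05 CPM in P18 replicate 4 (2.33 to 3.93), with at most 0.571 CPM in any other library. P28 replicate 1 was above every P18 library, and P18 replicate 4 was above the other 3 P28 libraries, so the ages overlapped. The gene fell short of the filter on low counts and has no test. P28 replicate 3, with the highest Tnfrsf11a and Nfatc1 levels, had 7 counts of Oscar.

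**Figure D2:**
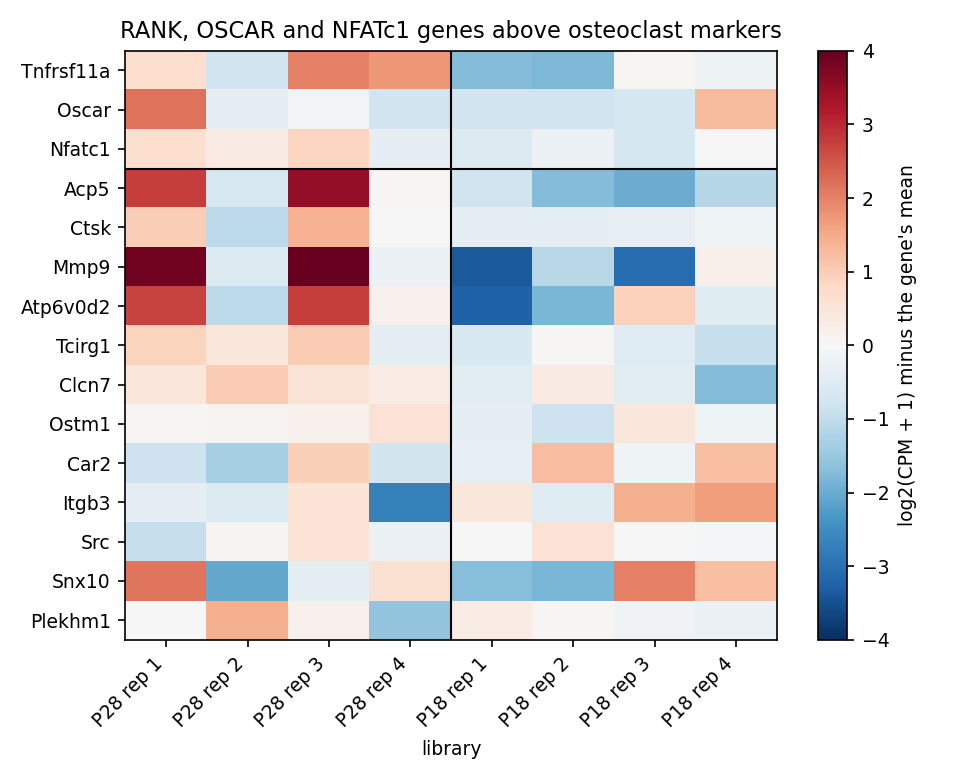
Tnfrsf11a, Oscar and Nfatc1 (top 3 rows) above the 12 tested osteoclast marker genes, with P28 libraries on the left and P18 libraries on the right. Colour gives log2(CPM + 1) minus the mean of the gene over the 8 libraries. Acp5, Ctsk, Mmp9, Atp6v0d2 and Tcirg1 are highest in P28 replicates 1 and 3. Clcn7 and Plekhm1 peak in P28 replicate 2, Ostm1 in P28 replicate 4 and Snx10 in P28 replicate 1. Car2 and Src peak in P18 replicate 2, and Itgb3 in P18 replicate 4. Tnfrsf11a is highest in P28 replicates 3 and 4, and Oscar in P28 replicate 1.

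Markers of resorbing cells differed between the same libraries. Summed over the 13 osteoclast markers in the table, the level was 5799, 1333, 8220 and 2288 CPM across P28 replicates 1 to 4, and 1697, 1774, 1766 and 2009 CPM across P18 replicates 1 to 4. P28 replicates 1 and 3 stood above the rest, and P28 replicate 2 lay below every P18 library; most of each sum is Ctsk and Acp5. Of the 12 tested, 1 was called higher (Acp5, the tartrate-resistant phosphatase of osteoclasts) and 0 lower, with 9 log2 fold changes above 0 and a median of 0.67, against a median of 0.01 over all genes. Acp5 averaged 1142 ± 1184 CPM at P28 and 90.1 ± 33.9 CPM at P18 (SD, n = 4 each), a log2 fold change of 3.67 ± 0.77 (adjusted p = 0.0494). It stayed called in 5 of the 15 alternatives, with adjusted p up to 0.173 over all of them. Of the 8 fits that left out 1 library it stayed called in 2, those without P28 replicate 2 or 4. The call also ended with upper-quartile scaling, with voom, with the replicate block and with a filter of 10 counts in 4 libraries. Mmp9, a gelatinase, and Tcirg1, a proton pump subunit, had log2 fold changes of 4.40 ± 1.20 and 1.05 ± 0.34 (adjusted p = 0.107 and 0.169); Mmp9 passed with the DESeq2 Wald test. Other markers had log2 fold changes below 0: the integrin chain Itgb3 (-1.51 ± 0.91), the carbonic anhydrase Car2 (-0.86 ± 0.53) and the kinase Src (-0.19 ± 0.43), with adjusted p = 0.491, 0.504 and 0.886. Calcr, the calcitonin receptor that marks mature osteoclasts, had no count except in P28 replicate 4, at 0.208 CPM. P28 replicates 1 and 3 were the libraries with the highest Nfatc1, while Tnfrsf11a was also high in P28 replicate 4, where the osteoclast sum was 2288 CPM. The part of osteoclast content in the levels of Tnfrsf11a, Nfatc1 and Oscar was not tested.

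Markers of macrophages and monocytes, from which osteoclasts form, summed to 1534, 649, 1957 and 2267 CPM across P28 replicates 1 to 4 and to 753, 1180, 1259 and 996 CPM across P18 replicates 1 to 4. Here P28 replicates 1, 3 and 4, the libraries with more Tnfrsf11a than any P18 library, were also above every P18 library. At P18, replicate 3 had the highest sum and the highest Tnfrsf11a level (2.82 CPM). Replicate 2, at a sum of 1180 CPM, had the lowest Tnfrsf11a level (0.0360 CPM), and replicate 4, at 996 CPM, had 2.14 CPM. Most of each sum is Lyz2, C1qa, C1qb and C1qc. Of the 13 tested, 0 were called, with 10 log2 fold changes above 0 and a median of 0.54; C1qa and C1qb, subunits of complement C1q, had log2 fold changes of 1.32 ± 0.35 and 0.90 ± 0.38, and Cd68, a lysosomal protein, had 1.56 ± 0.57 (adjusted p = 0.0991, 0.304 and 0.228). C1qa passed with the DESeq2 Wald test and without P28 replicate 2. The 3 markers below 0 were Adgre1 (-0.89 ± 0.67), Cx3cr1 (-0.83 ± 1.00) and Fcgr1a (-0.52 ± 0.87), with adjusted p = 0.596, 0.757 and 0.838. In P28 replicate 4 Fcgr1a lay at 1.04 CPM, below every P18 library. The part of macrophage content in the level of Tnfrsf11a was not tested.

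Csf1, which recruits and sustains the precursors, varied 9.08-fold between libraries at P28 and 1.11-fold at P18, the least of the 6 tested genes there. Another gene overlaps it in the RefSeq annotation of GRCr8, and whether reads were shared was not tested. It lay at 24.5, 18.3, 16.3 and 2.70 CPM across P28 replicates 1 to 4 and at 13.3, 13.2, 14.2 and 14.7 CPM across P18 replicates 1 to 4. P28 replicates 1 to 3 were above every P18 library, and P28 replicate 4 was below every P18 library. That low value rests on 13 counts (95% counting interval 1.44 to 4.63 CPM, too narrow if reads are PCR copies). The mean was 15.5 ± 9.20 CPM at P28 and 13.8 ± 0.702 CPM at P18 (SD, n = 4 each). The log2 fold change was 0.16 ± 0.67, with a 95% interval of -1.29 to 1.61 (adjusted p = 0.943). Without P28 replicate 4 it was 0.51 ± 0.49 (adjusted p = 0.647), and without P28 replicate 1 it was -0.15.

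Pthlh, the ligand, lay at 9.40, 5.43, 14.5 and 5.83 CPM across P28 replicates 1 to 4, from 160, 52, 178 and 28 counts. At P18 it lay at 6.42, 3.21, 2.73 and 1.37 CPM in replicates 1 to 4, from 71, 89, 64 and 27 counts. All 4 P28 libraries were above 3 of the P18 libraries, and P18 replicate 1 lay between P28 replicate 4 and P28 replicate 1. The mean was 8.79 ± 4.21 CPM at P28 and 3.43 ± 2.14 CPM at P18 (SD, n = 4 each). P28 over P18, the log2 fold change was 1.36 ± 0.93, with a 95% interval of -0.66 to 3.38 (adjusted p = 0.547), and 1.01 to 1.85 leaving out 1 library. Epithelial and enamel organ markers, a tissue known to make PTHrP, summed to 399, 5436, 1645 and 47.9 CPM across P28 replicates 1 to 4 and to 5412, 539, 1535 and 37.5 CPM across P18 replicates 1 to 4. P28 replicate 2, with the highest sum, had the lowest Pthlh level at P28, while P18 replicates 1 and 4, with the highest and lowest sums at P18, had the highest and lowest Pthlh levels there. The sum pools genes that differ in direction: keratins of basal epithelium made up most of it in P28 replicate 2 (Krt14 at 2505 and Krt17 at 1805 CPM), and enamel organ proteins in P18 replicate 1 (Ambn at 2329 and Odam at 1916 CPM). Of the 9 tested, 0 were called higher and 2 lower, Ambn and Amtn. The part of epithelium in the Pthlh level was not tested.

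Pth1r, the receptor, had at least 5504 counts in every library. It lay at 936, 809, 449 and 1169 CPM across P28 replicates 1 to 4 and at 631, 701, 455 and 357 CPM across P18 replicates 1 to 4. P28 replicates 1, 2 and 4 were above every P18 library, and P28 replicate 3 lay below 3 of them. The mean was 841 ± 301 CPM at P28 and 536 ± 158 CPM at P18 (SD, n = 4 each). The fitted log2 fold change was 0.65 ± 0.29, with a 95% interval of 0.01 to 1.29 taken alone; once adjusted over all genes the test was not passed (adjusted p = 0.334), and it was 0.45 to 0.86 leaving out 1 library. Osteoblast, cementoblast and osteocyte markers, cells that also carry the receptor, summed to 91904, 86374, 70563 and 75343 CPM across P28 replicates 1 to 4 and to 73340, 64556, 41382 and 52613 CPM across P18 replicates 1 to 4; most of each sum is Col1a1. Of the 11 tested, 1 was called higher (Bglap, osteocalcin) and 0 lower, with 8 log2 fold changes above 0, 3 below and a median of 1.34. Those below 0 were Alpl (-0.35 ± 0.21), Sp7 (-0.31 ± 0.33) and Runx2 (-0.05 ± 0.27), with adjusted p = 0.483, 0.712 and 0.957. Bglap averaged 1722 ± 820 CPM at P28 and 373 ± 134 CPM at P18, and its call ended without P28 replicate 1 or P18 replicates 2, 3 or 4 (adjusted p up to 0.0979). Ibsp, bone sialoprotein, had a log2 fold change of 1.34 ± 0.29 (adjusted p = 0.0523), and passed in 4 of the 15 alternatives. The part of mineralizing cells in the Pth1r level was not tested.

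**Figure D3:**
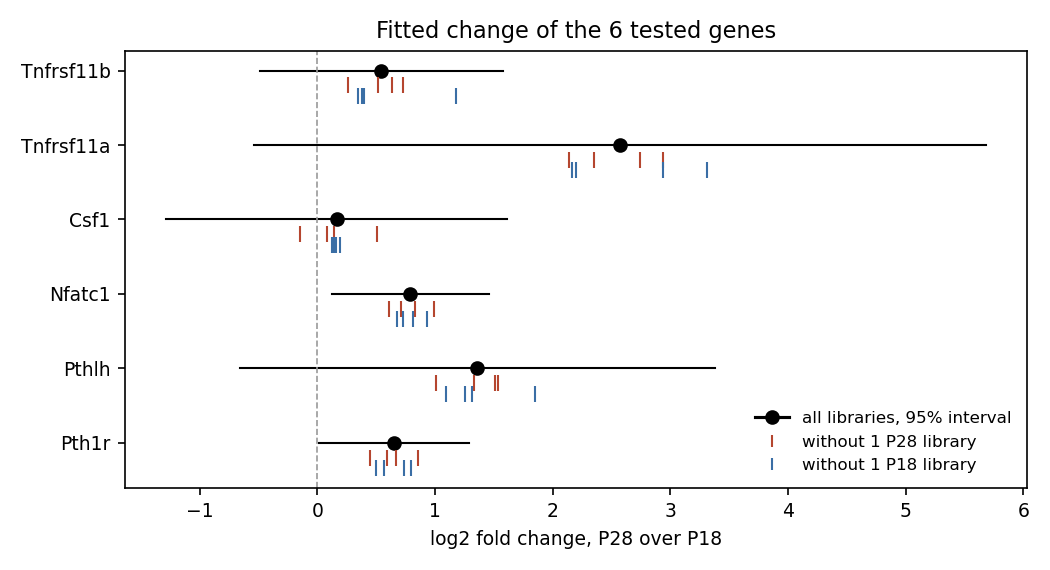
Log2 fold change, P28 over P18, of the 6 genes that could be tested, from the edgeR fit to all 8 libraries (black points, with 95% intervals for the gene taken alone) and from the fits that left out 1 P28 library (red ticks) or 1 P18 library (blue ticks). Only the intervals of Nfatc1 and Pth1r lie above 0, and neither gene passed once p was adjusted over all genes; the Csf1 estimates fall on either side of 0.

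The other genes of these pathways were taken from 7 lists. Of their 96 tested genes 0 were called by edgeR, the lowest adjusted p being 0.0579. An unadjusted p under 0.05 was found for 15 of them (15.6%, against 14.5% of all genes). Of these 11 were higher and 4 lower, against 7.45% and 7.1% of all genes. No overlap between P28 and P18 libraries was found for 8 (8.33%, against 10.4% of all genes tested). Of these 7 were higher and 1 lower, against 4.91% and 5.54% of all genes. With the directions pooled, both shares were near the background. Split by direction, more of these genes were higher than lower, while the shares of all genes were close to even. This split was not tested.

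Within RANK signalling and osteoclast transcription factors, 0 of 25 tested genes were called, with 13 log2 fold changes above 0 and 12 below and a median of 0.04. Ppp3r1, the regulatory subunit of the phosphatase calcineurin that activates NFATc1, averaged 44.1 ± 17.0 CPM at P28 and 100.5 ± 37.4 CPM at P18 (log2 fold change -1.19 ± 0.35, adjusted p = 0.130). Nfkb2, of the alternative NF-kappaB branch, averaged 43.0 ± 12.2 CPM at P28 and 18.7 ± 5.23 CPM at P18 (1.20 ± 0.40, adjusted p = 0.175). Bcl6, a repressor of osteoclast genes in mice, averaged 28.3 ± 8.19 CPM at P28 and 5.72 ± 5.89 CPM at P18 (2.31 ± 0.88, adjusted p = 0.244). The ages did not overlap for Nfkb2 and Bcl6. Ppp3r1 passed with the DESeq2 Wald test and Bcl6 with voom. Among 7 tested co-stimulation genes, 0 were called and the median was 0.42. The adaptors Tyrobp (DAP12) and Fcer1g (FcR gamma, the partner of OSCAR) had log2 fold changes of 1.22 ± 0.52 and 0.66 ± 0.34, and the kinase Btk one of -2.93 ± 1.52 (adjusted p = 0.308, 0.403 and 0.410). Tyrobp lay at 444, 54.1, 512 and 137 CPM across P28 replicates 1 to 4 and between 109 and 144 CPM at P18, so it was high in the libraries with high osteoclast sums.

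In the CSF1 receptor pathway, 0 of 9 tested genes were called, with 4 log2 fold changes above 0 and 5 below. Il34, the alternative ligand of the CSF1 receptor, lay at 68.4, 78.0, 79.8 and 51.8 CPM across P28 replicates 1 to 4 and at 22.0, 37.3, 30.4 and 44.6 CPM across P18 replicates 1 to 4. Unlike Csf1, its libraries did not overlap between the ages; whether the changes of the 2 ligands differ was not tested. The log2 fold change of Il34 was 1.05 ± 0.31 (adjusted p = 0.136). Csf2ra, a receptor chain for granulocyte-macrophage colony-stimulating factor, averaged 41.9 ± 22.7 CPM at P28 and 11.5 ± 3.06 CPM at P18, without overlap (1.87 ± 0.48, adjusted p = 0.0928). Both Il34 and Csf2ra passed with the DESeq2 Wald test. Kitlg, the ligand of the related receptor KIT, had a log2 fold change of -0.83 ± 0.37 (adjusted p = 0.332).

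Downstream of Pth1r, 0 of 21 tested genes were called, with 7 log2 fold changes above 0 and 14 below and a median of -0.18. Prkar1a, a regulatory subunit that holds protein kinase A inactive, lay at 111, 141, 112 and 151 CPM across P28 replicates 1 to 4 and at 175, 251, 254 and 250.2 CPM across P18 replicates 1 to 4. Adcy6, an adenylate cyclase that makes the cyclic AMP released by receptor signalling, lay at 84.4, 115, 85.0 and 54.1 CPM across P28 replicates 1 to 4 and at 37.3, 24.2, 30.9 and 47.1 CPM across P18 replicates 1 to 4. In neither gene did the ages overlap, with Prkar1a lower and Adcy6 higher in all 4 P28 libraries. Their log2 fold changes were -0.85 ± 0.20 and 1.28 ± 0.32 (adjusted p = 0.0773 and 0.0844), and each passed without P28 replicate 4, with the Wald test of DESeq2 and with voom. Rgs2, which dampens G protein signalling, had a log2 fold change of -1.33 ± 0.64 (adjusted p = 0.370). Pth, Pth2 and Pth2r had no count in any library. Of 6 tested hedgehog genes, partners of PTHrP in the growth plate, 0 were called; Gli2, Smo and Ptch1 had log2 fold changes of -2.06 ± 1.14, -0.82 ± 0.52 and 1.11 ± 0.80 (adjusted p = 0.443, 0.512 and 0.571).

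Among inducers of RANKL and eruption cytokines, 0 of 20 tested genes were called, with 16 log2 fold changes above 0 and a median of 0.53. Over all genes tested, 50.3% were above 0 and the median was 0.01. Spp1, osteopontin, lay at 334, 246, 719 and 80.9 CPM across P28 replicates 1 to 4 and at 37.3, 63.3, 9.73 and 68.3 CPM across P18 replicates 1 to 4 (log2 fold change 2.95 ± 0.65, adjusted p = 0.0579). It passed in 4 of the 15 alternative analyses, those without P28 replicate 4, with the DESeq2 Wald test, with voom and with no filter beyond 1 count. Spp1 is also on the list of osteoblast, cementoblast and osteocyte markers. Ccl2, a chemokine that draws monocytes, lay at 11.9, 49.8, 8.24 and 9.15 CPM across P28 replicates 1 to 4 and at 5.33, 3.64, 0.598 and 7.89 CPM across P18 replicates 1 to 4 (2.18 ± 0.92, adjusted p = 0.301). Both were higher in every P28 library than in any P18 library. Tgfb1 averaged 126 ± 24.5 CPM at P28 and 88.7 ± 7.65 CPM at P18 (0.51 ± 0.21, adjusted p = 0.295). Among antagonists of resorption, 0 of 8 tested genes were called; Wnt16, which raises OPG in mouse osteoblasts, Sema3a, which restrains osteoclasts, and Il1rn, the interleukin-1 receptor antagonist, had log2 fold changes of 3.60 ± 1.99, -2.56 ± 1.48 and 1.90 ± 1.34 (adjusted p = 0.444, 0.466 and 0.562).

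**Figure D4:**
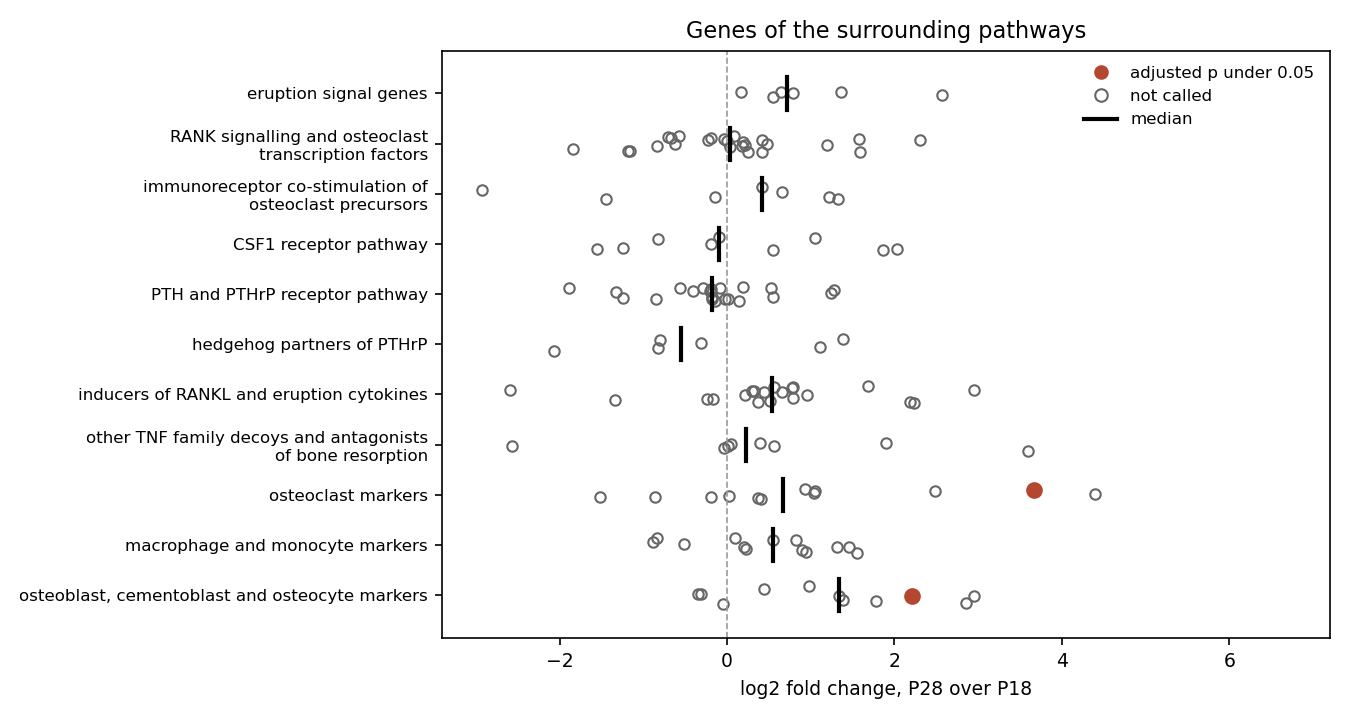
Log2 fold change, P28 over P18, of every tested gene in the eruption signal set, the 7 pathway lists and 3 marker lists; circles are genes, black bars medians, and filled red circles genes with an adjusted p under 0.05. Acp5 and Bglap are the called genes, and both are in marker lists; no gene of the signal set or the 7 pathway lists is filled.

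The genes whose pattern over the 8 libraries was nearest to each signal gene were found by the root mean square difference of log2 CPM, each gene centred on its own mean, among up to 7650 genes. Distances are given beside the SD of each signal gene over the 8 libraries. Pth1r (SD 0.59) was nearest to Snrnp48, B4galt6 and Fasn, at 0.13, 0.21 and 0.22. Csf1 (SD 0.93) was nearest to Dstn, Cdc42bpa and Ogfod2, at 0.19, 0.22 and 0.26. Their low levels in P28 replicate 4, at 30.2, 8.95 and 1.46 CPM, follow from the way they were picked. Nfatc1 (SD 0.58) was nearest to Nupr1l, Psmb10 and Purb, at 0.18, 0.21 and 0.21. Tnfrsf11b (SD 0.77) was nearest to Safb, Wwc2 and Fggy, at 0.30, 0.31 and 0.34. That these were highest in replicate 2 at P18 follows from the same choice. Pthlh (SD 1.03) was nearest to Tnrc6b, Slc15a3 and Syde2, at 0.32, 0.34 and 0.37. For Tnfrsf11a (SD 2.38) Sirt3 was nearest, at 0.93, and Wfs1 lay at 1.12. None of the neighbours named here was called by edgeR with all libraries; Sirt3 and Slc15a3 passed with the DESeq2 Wald test, and Tnrc6b with voom.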

How the data were processed

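Raw read counts, 1 row per gene symbol, were used as the authors deposited them. Their tools, per the submitters' processing notes, were edgeR 3.16.5, HTSeq 0.9.1 and STAR 2.5.3a, on rn6; which step each did, the gene annotation used and whether strand was read is not given in the sources used here. Libraries came from a low-input SMARTer kit, per the labels' protocols. Of the table, 8 columns were used and 40 columns of other samples were not; a second, normalized table was not used.

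Genes passing the expression filter of edgeR (minimum count 10) were tested with edgeR 4.0.16 in R 4.3.3 (quasi-likelihood, 2-sided, TMM scaling, age as the only term), with p adjusted over all of them. SE is the log2 fold change divided by the root of F. Alternatives were DESeq2 1.42.0 (Wald test; size factors), upper-quartile scaling, limma 3.58.1 (voom with quality weights), other filters, subject number as a block, and leaving out each library. P-values weigh the difference between the ages against the spread between libraries. With 1 library per animal, animal and technical differences cannot be told apart in that spread.

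The signal genes and lists were chosen with earlier results of these data known. Named were all signal genes, the 3 genes of lowest p in each of 7 pathway and 9 marker lists, any called, and the 3 genes nearest in pattern to each tested signal gene (mean log2 CPM of at least 3). Other list genes, among them Dmp1, Sost, Calcr, Itgb3, Adgre1 and Alpl, were named outside this rule. The planned exact permutation test of the Tnfsf11 to Tnfrsf11b ratio had no values to run on. Listed genes with no row in the table (16) were not analysed here, and 1 gene that the naming rule picks is not reported here.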

Additional observations from a re-analysis of the deposited data

Results flagged for a closer look

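In 14 groups of 4 libraries with values that varied, 3 held a library whose gap to its nearest neighbour took up more of the group's range than Dixon's limit for 4 values. For normally distributed values chance gives about 1 in 20 such groups, a rate that need not hold for low counts such as those of Oscar. Tnfrsf11b lay at 72.7 CPM in P18 replicate 2, and the gap below it took up 0.948 of the P18 range. Oscar lay at 6.58 CPM in P28 replicate 1 (0.913 of the P28 range). It lay at 3.05 CPM in P18 replicate 4 (0.986 of the P18 range).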

How the results depend on the processing

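With the settings of the report 98 genes were called, 54 higher and 44 lower. The Wald test of DESeq2 called 552 (290 higher, 262 lower), voom with quality weights 307 (175 higher, 132 lower) and the fit with the replicate block 26 (16 higher, 10 lower). Without P28 replicates 1 to 4 there were 16, 136, 31 and 215 calls, and without P18 replicates 1 to 4 there were 56, 9, 23 and 24; the higher calls ran from 4 to 110 and the lower from 5 to 105. The cause was not tested. Of the 6 tested signal genes, 0 were called in any of the 15 alternatives, where the lowest adjusted p was 0.0786 (Nfatc1 without P28 replicate 4). The direction held in all 15 for Tnfrsf11b, Tnfrsf11a, Nfatc1, Pthlh and Pth1r. That of Csf1 reversed with the replicate block (-0.12) and without P28 replicate 1 (-0.15); otherwise it was 0.08 to 0.51. Subject numbers recur at both ages, but the labels name 4 animals per age, and deviations of same-numbered libraries correlated at -0.0196 to 0.00189, with 0 of 8 libraries closest to their own number. The alternatives for the Tnfsf11 to Tnfrsf11b ratio gave no value. With no filter beyond 1 count, Oscar had a log2 fold change of 1.26 ± 2.23 (adjusted p = 0.826). Low counts limit Tnfsf11, Oscar and, in P18 replicates 1 and 2, Tnfrsf11a. Oscar had 0 counts in P28 replicate 4, the shallowest library, and in P18 replicates 1 and 2, of which replicate 2 was the deepest library. The part of depth in these counts was not tested.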

Other observations

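Markers of other blood-derived cells, which can also carry RANKL or RANK, differed between libraries. Of 6 tested T and B cell markers 0 were called. Ms4a1, the B cell antigen CD20, lay at 0, 0.104, 0.0815 and 4.79 CPM across P28 replicates 1 to 4 and at 24.5, 13.4, 7.17 and 11.2 CPM across P18 replicates 1 to 4, without overlap (adjusted p = 0.308). Cd79b, part of the B cell receptor, lay at 1.88, 4.28, 18.8 and 1.25 CPM across P28 replicates 1 to 4 and at 42.2, 60.4, 9.14 and 52.6 CPM across P18 replicates 1 to 4 (adjusted p = 0.172). Ms4a1 passed without P28 replicate 4, and Cd79b with the DESeq2 Wald test. Cd2, of T cells, had a log2 fold change of 1.06 ± 1.06. Cd3d, Cd3e and Cd3g, chains of the T cell receptor complex, did not pass the filter on low counts. Of 7 tested neutrophil markers 0 were called; Ngp, S100a8 and S100a9, proteins of neutrophil granules and cytosol, had log2 fold changes of -4.29 ± 1.03, -1.98 ± 0.76 and -1.71 ± 0.84 (adjusted p = 0.0773, 0.246 and 0.383). Ngp passed with the DESeq2 Wald test and without P18 replicate 3.

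Of 9 tested ligament fibroblast markers, 1 was called higher (Fmod, fibromodulin) and 1 lower (Tnmd, tenomodulin), and Col3a1 had a log2 fold change of 0.69 ± 0.22 (adjusted p = 0.171), passing with the DESeq2 Wald test and without P28 replicate 2. The call of Tnmd held in all 15 alternatives and that of Fmod in 11, ending without P28 replicate 1 or 3 or P18 replicate 1 or 2. Of 9 tested epithelial and enamel organ markers 0 were called higher and 2 lower, Amtn and Ambn, genes of enamel-forming cells; Ambn lay at 1.06, 1.25, 2.69 and 4.58 CPM across P28 replicates 1 to 4 and at 2329, 171, 692 and 9.72 CPM across P18 replicates 1 to 4. Both calls ended without P28 replicate 1 or 3 and with voom, that of Amtn also without P18 replicate 2, and that of Ambn also with the replicate block. Amelx, amelogenin, had a log2 fold change of -6.36 ± 1.66 (adjusted p = 0.0958), passing with the DESeq2 Wald test and with the replicate block. Of 8 tested endothelial markers 0 were called; Pecam1, Cdh5 and Tek, membrane proteins of endothelium, had log2 fold changes of 0.95 ± 0.20, -0.91 ± 0.49 and -0.68 ± 0.41 (adjusted p = 0.0518, 0.426 and 0.495); Pecam1 passed with the DESeq2 Wald test and with voom. Of 2 tested chondrocyte markers, Sox9 and Acan, 0 were called (adjusted p = 0.493 and 0.523).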
